A study of Homo sapiens with 12 samples.

Results

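ZEB1 and ZNF609 are zinc finger proteins whose chromatin immunoprecipitation and sequencing (ChIP-seq) in HEK293T cells left 2 lists of peaks each. A reproducible region of a protein was a stretch of overlapping peaks that held a peak of both of its lists. The regions of both proteins were then merged, and each merged region was called shared, ZEB1 only or ZNF609 only by the proteins whose regions it held. This gave 17723 merged regions, of 208911 when regions of all 5 proteins in the series were merged in the same way. Of the 17723, 9086 were ZEB1 only, 4187 were ZNF609 only and 4450 were shared.

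HEK293T is a human embryonic kidney line that carries the SV40 large T antigen and is widely used for transfection; here its genotype was given as wild type. The series holds 12 libraries, 2 each for INTS13 and INTS11 (subunits of Integrator), HDGF, ZEB1, ZNF609 and input chromatin, and concerns how Integrator acts on particular genes. ZEB1 was precipitated with a commercial antibody from Proteintech and ZNF609 with an antibody made in an earlier study. The labels name no treatment; cells were fixed with formaldehyde and their chromatin was sonicated. The labels leave unsaid if replicates came from separate cultures, so p-values measure the spread between these libraries, which may be technical. With 2 libraries per protein a two-sided exact permutation test cannot give a p below 0.333, so no difference below could have passed a threshold of 0.05.

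ZEB1 is a transcription factor with a homeodomain and clusters of zinc fingers at either end. It binds E-boxes of the form CACCTG and is best known for repressing epithelial genes such as CDH1 during the epithelial to mesenchymal transition, and the miR-200 family of microRNAs represses it in turn. ZNF609 has a single zinc finger and no well established recognition sequence; it is known for its association with the cohesin loader NIPBL and with Integrator in mouse neural stem cells, and its gene also gives rise to a circular RNA. Neither the level of these proteins nor that of any RNA was measured here.

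The promoters below belong to the genes with the strongest regions of each class and show what sequence stands where the peaks of the classes met a gene start. Each is 250 bases before to 50 bases after a RefSeq start on GRCh38.p14, 300 bases in all, printed 5′ to 3′ along the strand of the gene. Capitals mark CACCTG or its reverse complement CAGGTG, the E-box form bound by ZEB1. The first pair carried shared regions, the second pair ZEB1 only regions and the third pair ZNF609 only regions. NBPF1 lies at chr1:16613515-16613814 on the minus strand and TLE4 at chr9:79571715-79572014 on the plus strand. ZNF689 lies at chr16:30609779-30610078 on the minus strand and MOCOS at chr18:36187247-36187546 on the plus strand. FSAF1 lies at chr1:231241126-231241425 on the minus strand and GNPAT at chr1:231240962-231241261 on the plus strand, and these 2 windows overlap because the genes start close together on opposite strands.
NBPF1: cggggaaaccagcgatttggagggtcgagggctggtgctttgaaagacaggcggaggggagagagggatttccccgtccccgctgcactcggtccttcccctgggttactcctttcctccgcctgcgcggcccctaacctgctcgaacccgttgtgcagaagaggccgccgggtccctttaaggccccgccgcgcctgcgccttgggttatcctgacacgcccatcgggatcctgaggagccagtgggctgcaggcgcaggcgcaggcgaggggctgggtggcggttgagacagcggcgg
TLE4: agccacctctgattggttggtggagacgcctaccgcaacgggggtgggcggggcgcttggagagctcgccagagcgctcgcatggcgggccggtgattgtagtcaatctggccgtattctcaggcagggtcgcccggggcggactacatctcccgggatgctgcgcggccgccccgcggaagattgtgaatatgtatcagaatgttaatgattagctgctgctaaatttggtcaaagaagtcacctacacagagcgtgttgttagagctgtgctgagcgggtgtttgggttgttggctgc
ZNF689: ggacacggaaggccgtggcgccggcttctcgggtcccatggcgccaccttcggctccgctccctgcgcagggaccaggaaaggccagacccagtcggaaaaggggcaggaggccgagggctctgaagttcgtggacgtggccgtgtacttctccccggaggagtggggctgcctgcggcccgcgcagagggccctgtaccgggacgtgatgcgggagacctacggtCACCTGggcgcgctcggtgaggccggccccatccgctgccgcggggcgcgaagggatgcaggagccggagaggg
MOCOS: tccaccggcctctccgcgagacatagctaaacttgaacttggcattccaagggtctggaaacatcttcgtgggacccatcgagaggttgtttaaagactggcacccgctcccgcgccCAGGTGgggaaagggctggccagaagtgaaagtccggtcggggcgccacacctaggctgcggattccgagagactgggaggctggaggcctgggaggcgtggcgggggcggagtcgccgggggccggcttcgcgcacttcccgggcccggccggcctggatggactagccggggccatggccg
FSAF1: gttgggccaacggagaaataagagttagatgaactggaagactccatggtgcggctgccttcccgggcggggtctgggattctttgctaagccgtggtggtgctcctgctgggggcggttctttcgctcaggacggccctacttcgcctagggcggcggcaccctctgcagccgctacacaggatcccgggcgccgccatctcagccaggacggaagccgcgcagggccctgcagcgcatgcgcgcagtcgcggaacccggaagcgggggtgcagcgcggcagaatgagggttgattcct
GNPAT: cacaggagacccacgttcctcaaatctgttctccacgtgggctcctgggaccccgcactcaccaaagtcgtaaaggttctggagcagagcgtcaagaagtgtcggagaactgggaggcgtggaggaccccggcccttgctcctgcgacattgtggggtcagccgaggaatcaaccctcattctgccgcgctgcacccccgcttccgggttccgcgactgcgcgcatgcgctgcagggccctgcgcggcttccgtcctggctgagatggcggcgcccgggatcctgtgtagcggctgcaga
ZNF689 and MOCOS each held 1 copy of the E-box, starting at bases 227 and 118 of the window, and the other 4 promoters held 0. Across all 34961 RefSeq promoters in the table, 20.6% held CACCTG or CAGGTG.

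The share of promoters with the E-box under ZEB1 regions lay within the interval of that under ZNF609 regions. The E-box was present in 24.5% of the 592 promoters that overlapped a ZEB1 region (95% Wilson interval 21.2 to 28.1%) and in 26% of the 196 that overlapped a ZNF609 region (20.4 to 32.6%). By class, 25.1% of 343 promoters under ZEB1 only regions (20.8 to 29.9%) held it, 30.6% of 36 under ZNF609 only regions (18 to 46.9%) and 23.8% of 265 under shared regions (19.0 to 29.3%). In single lists the share was 24.1% and 22.9% for the ZEB1 replicates, against 23.9% and 25.3% for the ZNF609 replicates. The values of the lists overlapped, and the difference in means of -1.12 points had a two-sided exact permutation p of 0.667. The intervals cover counting error only, several promoters can belong to 1 gene, and a match to these letters is not a binding site.

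ZEB1 had the longer lists, although the longer ZNF609 list exceeded the shorter ZEB1 list. On chromosomes 1 to 22 and X, ZEB1 had 52336 and 45291 peaks, against 46187 and 26409 for ZNF609. Deposited peaks averaged 48825 ± 4987 for ZEB1 and 36310 ± 13991 for ZNF609 (SD, n = 2 each). ZEB1 peaks covered 42.3 and 36.2 Mb, against 39.3 and 22.1 Mb for ZNF609. Read depth is unknown, and its part in these numbers was not tested. Because a longer list meets more places by its length alone, several comparisons below are also given for lists of equal length, the 26409 peaks with the highest -log10 p of each list.

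The widths and heights of ZEB1 and ZNF609 peaks overlapped between lists. The median width was 529 and 524 bp in the ZEB1 lists, against 541 and 498 bp in the ZNF609 lists. The 2 ZEB1 values lay between the 2 ZNF609 values, and the difference of 7.0 bp in means had a two-sided exact permutation p of 1. The authors' fold enrichment, the height of a summit relative to the background of the peak caller, had a median of 2.52 and 2.67 in the ZEB1 lists, against 2.58 and 2.83 in the ZNF609 lists. The highest fold of a list was 12.7 and 10.4 for ZEB1, against 10.9 in both ZNF609 lists. Most peaks were weak by the authors' own q-values, since 3486 and 2304 ZEB1 peaks and 2499 and 1711 ZNF609 peaks had a -log10 q of 5 or more. The lists also held broad peaks of 10 kb or more, 184 and 149 in the ZEB1 lists, against 171 and 157 in the ZNF609 lists.

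The similarity of a ZEB1 list to a ZNF609 list lay in the same range as that of replicates of the same antibody. Similarity was measured with the Jaccard index, the bases covered by both lists as a share of the bases covered by either. The index of the ZEB1 replicate pair was 0.234, against 0.230 for the pair of ZNF609 replicates. Between the proteins it was 0.239 for ZEB1 replicate 1 with ZNF609 replicate 1 and 0.214 for ZEB1 replicate 1 with ZNF609 replicate 2. It was 0.241 for ZEB1 replicate 2 with ZNF609 replicate 1 and 0.224 for ZEB1 replicate 2 with ZNF609 replicate 2. The pair of highest similarity was thus a pair of different antibodies, and the pairs within a protein lay inside the range of the pairs between them. The mean within proteins was 0.232 (n = 2 pairs) and the mean between them 0.230 ± 0.0129 (SD, n = 4 pairs). The difference of 0.00218 had a one-sided exact permutation p of 0.333, the smallest that the 3 divisions of 4 libraries into pairs can give. With lists of equal length the indices were 0.275 and 0.266 within proteins and 0.256 to 0.282 between them.

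For 3 of the 4 lists the most similar list belonged to the other protein. Both ZEB1 lists were closest to ZNF609 replicate 1, and ZNF609 replicate 1 was closest to ZEB1 replicate 2. The exception was ZNF609 replicate 2, which was closest to ZNF609 replicate 1. In shares of peaks, 32.7% of ZEB1 replicate 1 peaks met a peak of ZEB1 replicate 2 and 33.9% met a peak of ZNF609 replicate 1. Of ZEB1 replicate 2 peaks, 39.0% met ZEB1 replicate 1 and 37.4% met ZNF609 replicate 1. Of ZNF609 replicate 2 peaks, 45.5% met ZEB1 replicate 1, 42.4% met ZEB1 replicate 2 and 45.7% met ZNF609 replicate 1. These shares move with the length of the list that is met.

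**Figure D1:**
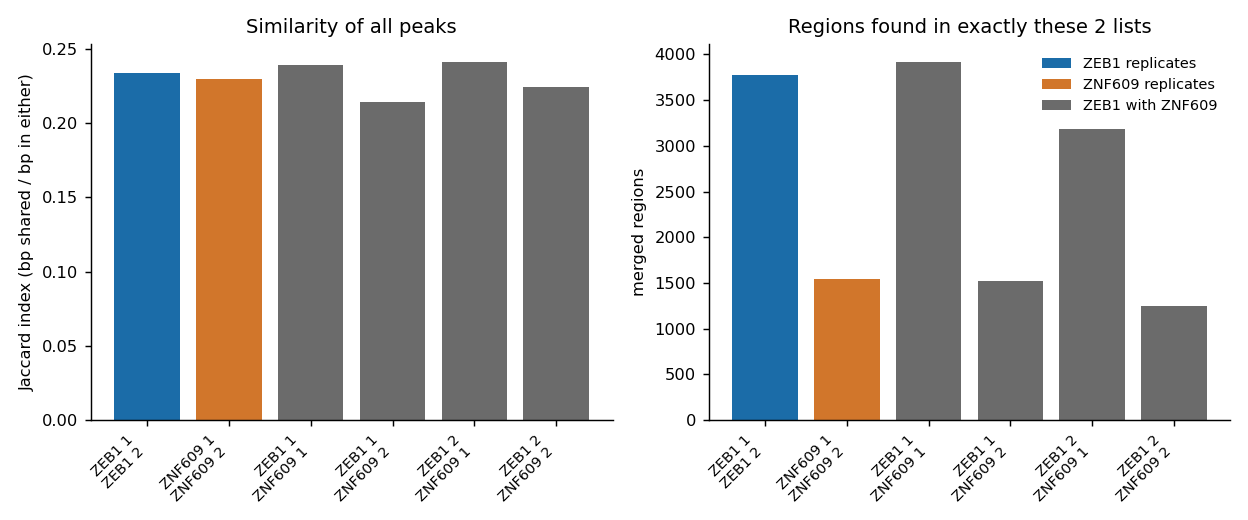
Left, the Jaccard index (vertical axis, shared bases over bases in either list) of each pair of lists; right, the number of merged regions present in exactly the 2 lists named. Blue is the pair of ZEB1 replicates, orange the pair of ZNF609 replicates and grey the 4 pairs of ZEB1 with ZNF609; the indices of the replicate pairs, 0.234 and 0.230, fall within the 0.214 to 0.241 of the grey pairs.

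The distances between summits, which place a peak more finely than its overlap, also lay in the same range. Among overlapping peaks the median distance between summits was 432 bp for the ZEB1 replicate pair, against 471 bp for the pair of ZNF609 replicates. Between the proteins it was 451 and 472 bp for ZEB1 replicate 1 with ZNF609 replicates 1 and 2, and 451 and 462 bp for ZEB1 replicate 2 with the same lists. The mean within proteins was 451.5 bp (n = 2 pairs) and the mean between them 459 ± 10.1 bp (SD, n = 4 pairs), a difference of -7.5 bp with a one-sided exact permutation p of 0.333. Summits within 100 bp of each other made up 6.16% of the shorter list for the ZEB1 replicate pair and 6.50% for the pair of ZNF609 replicates, beside 5.75% to 6.80% for pairs of both proteins. Most summits of overlapping peaks, of replicates and of different antibodies, were thus more than 100 bp apart.

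**Figure D2:**
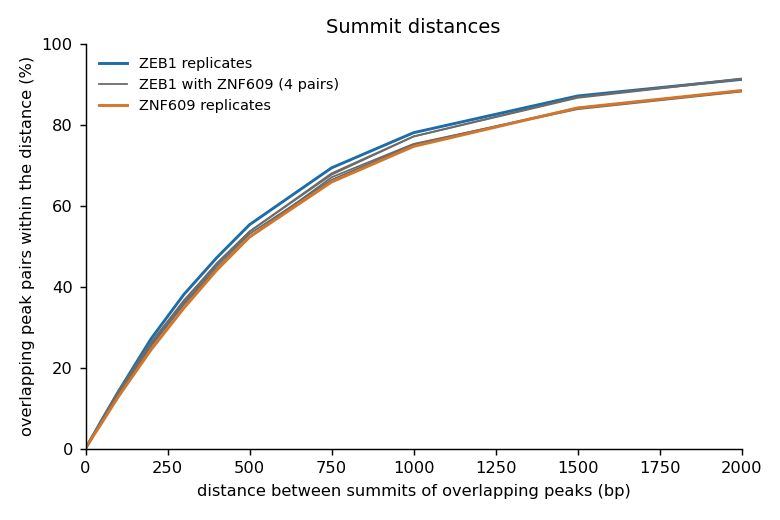
The share of overlapping peak pairs (vertical axis, percent) whose summits lie within a given distance (horizontal axis, bp). The lines of the ZEB1 replicates (blue), the ZNF609 replicates (orange) and the 4 pairs of both proteins (grey) run close together, with medians between 432 and 472 bp.

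Merging all 4 lists gave 103975 regions, of which 76066 held a peak of 1 list, 15192 of 2 lists, 7307 of 3 lists and 5410 of all 4. Among regions of exactly 2 lists, 3777 held both ZEB1 replicates and 1548 both ZNF609 replicates. The pair with the most such regions was ZEB1 replicate 1 with ZNF609 replicate 1, at 3919, and ZEB1 replicate 2 with ZNF609 replicate 1 had 3187. The 2 pairs of ZEB1 with the short list of ZNF609 replicate 2 had 1519 and 1242. Median widths of these regions lay between 795.5 and 892 bp in all 6 pairs, whereas regions present in all 4 lists had a median of 2673 bp.

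By reproducible regions, ZEB1 had 14984, covering 29.1 Mb with a median of 1226 bp, and ZNF609 had 9918, covering 21.6 Mb with a median of 1246.5 bp. Of ZEB1 regions, 5898 (39.4%) overlapped a ZNF609 region by 1 bp or more, and of ZNF609 regions 5731 (57.8%) overlapped a ZEB1 region. ZEB1 regions covered 0.959% and ZNF609 regions 0.714% of the chromosomes. Both sets were crowded into the same stretches, however. Of 3043 bins of 1 Mb, 273 (8.97%) were dense, having over 2 times the peaks of the mean bin in the median of the 4 lists, and they held 96.8% of ZEB1 regions and 98.5% of ZNF609 regions. The dense bins were chosen from the peaks of these same lists, so these high shares are in part set by that choice. Inside dense bins the regions covered 10.1% of the sequence for ZEB1 and 7.48% for ZNF609, and the overlapping shares were 40.3% of ZEB1 regions and 58.1% of ZNF609 regions. Outside them the shares were 10.1% of 486 ZEB1 regions and 37.1% of 151 ZNF609 regions. Coverage counts bases, whereas a region overlaps if 1 of its many bases is met, so the 2 kinds of share are unlike measures. The overlap expected from crowding and width was not tested. With lists of equal length the asymmetry between the proteins was small, with 4288 ZEB1 only, 3920 ZNF609 only and 2958 shared regions, and with 47.7% of ZEB1 regions and 50.2% of ZNF609 regions overlapping.

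Regions of a single protein were often not free of the other one. A ZNF609 peak of at least 1 list lay in 5309 of the 9086 ZEB1 only regions (58.4%), and 3777 held none. A ZEB1 peak of at least 1 list lay in 2639 of the 4187 ZNF609 only regions (63.0%), and 1548 held none. In 629 ZEB1 only regions both ZNF609 lists had a peak, and in 349 ZNF609 only regions both ZEB1 lists did, without these peaks forming a reproducible region of their own because they did not overlap each other. By list, 46.8% of ZEB1 only regions held a peak of ZNF609 replicate 1 and 18.5% a peak of ZNF609 replicate 2. Of ZNF609 only regions, 38.7% held a peak of ZEB1 replicate 1 and 32.7% a peak of ZEB1 replicate 2.

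The shared regions were wide and strong, while regions of a single protein were narrower. The median width was 1038 bp for ZEB1 only (quartiles 766 to 1449.75 bp), 966 bp for ZNF609 only (722 to 1318 bp) and 2630.5 bp for shared regions (1790.25 to 4223.75 bp). The widest region was 6.73 kb in ZEB1 only, 5.51 kb in ZNF609 only and 262 kb among shared regions, and all 279 regions of 10 kb or more were shared. A shared region joins peaks of 4 lists, so its width is in part set by how it was chosen. The median within-list percentile of -log10 p was 57.1 and 63.2 for the ZEB1 replicates in ZEB1 only regions, 60.4 and 52.2 for the ZNF609 replicates in ZNF609 only regions, and 83.7, 81.9, 86.1 and 76.4 for ZEB1 replicates 1 and 2 and ZNF609 replicates 1 and 2 in shared regions. These percentiles are of the strongest peak of each list in a region, and a wider region has more room for a strong peak. They too are thus in part set by how regions were chosen. Regions are not replicates, so classes were not tested against each other.

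Over all bins, INTS13 and INTS11 regions met most regions of every class, and HDGF regions met most of the shared ones. An INTS13 region overlapped 88.7% of ZEB1 only regions, 76.1% of ZNF609 only regions and 95.6% of shared regions. For INTS11, the endonuclease of Integrator, the shares were 84.2%, 80.3% and 98.4%, and for HDGF, a chromatin-associated growth factor, 38.4%, 29.3% and 61.6%, in the same order. Since wide regions meet more peaks, the same was read at the summit of the strongest peak of replicate 1. There INTS13 was present at 80.8%, 63.8% and 85.5% of ZEB1 only, ZNF609 only and shared regions. INTS11 was present at 76.3%, 69.6% and 93.3%, and HDGF at 28.1%, 21.7% and 42.2%, in the same order. By overlap outside dense bins, INTS11 regions met only 33.2% of ZEB1 only and 32.6% of ZNF609 only regions, but 97.6% of shared regions. INTS13 regions still met 82.2%, 64.2% and 95.1% of the classes, and HDGF regions 70.7% of the shared ones. The overlap expected from the coverage of INTS13, INTS11 and HDGF regions was not tested.

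**Figure D3:**
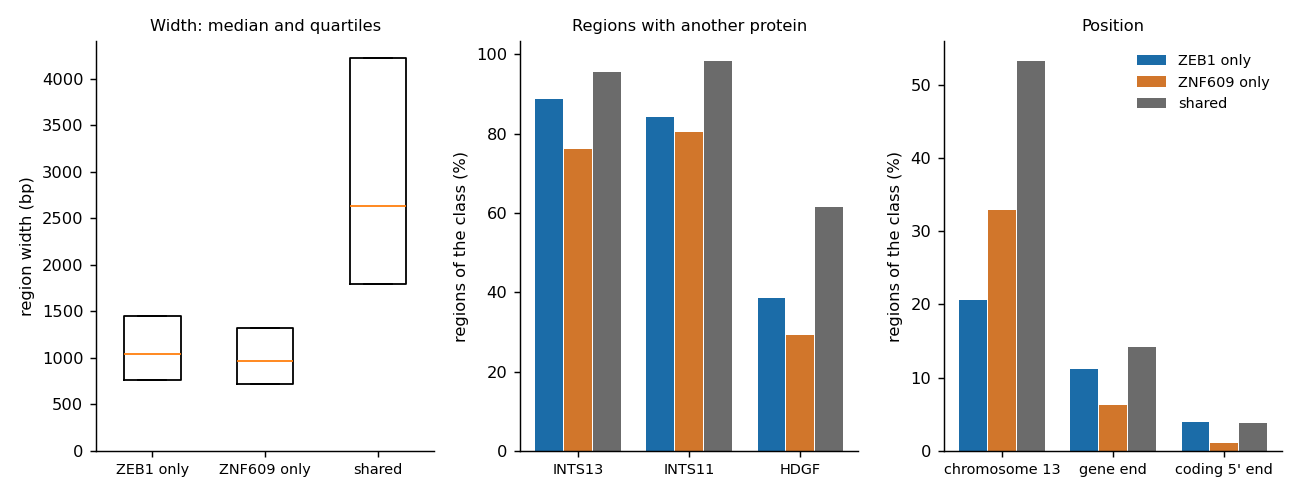
Properties of ZEB1 only (blue), ZNF609 only (orange) and shared (grey) regions. Left, the width in bp as median and quartiles (box; no whiskers); middle, the percent of regions that overlap a region of INTS13, INTS11 or HDGF; right, the percent on chromosome 13, within 1 kb of a gene end, and within 1 kb of a coding 5′ end. Shared regions are wider, with a median of 2630.5 bp, and 53.3% of them lie on chromosome 13.

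Between single lists of equal length, the similarity of ZEB1 to INTS11 was no lower than its similarity to ZNF609. The mean Jaccard index was 0.269 for ZEB1 with ZNF609, 0.282 for ZEB1 with INTS11 and 0.253 for ZNF609 with INTS11 (n = 4 pairs each). It was lower with INTS13, at 0.171 for ZEB1 and 0.136 for ZNF609, and with HDGF, at 0.173 for ZEB1 and 0.159 for ZNF609. Replicates of INTS13 and INTS11 reached 0.393 and 0.395 with each other and those of HDGF 0.270, beside 0.275 for ZEB1 and 0.266 for ZNF609. INTS13 regions met 85.7% and 79.6% of the peaks in the equal ZEB1 lists, against 77.3% and 71.8% in the ZNF609 lists. HDGF regions met 37.4% and 36.2% of the equal ZEB1 lists, against 34.9% and 32.1% for ZNF609. In both cases the ZEB1 lists lay above the ZNF609 lists, with a two-sided exact permutation p of 0.333. INTS11 regions met 75% and 73.8% of the equal ZEB1 lists, against 74.0% and 70.0% of the ZNF609 lists, and these lists overlapped.

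Along the chromosomes, both proteins were concentrated on chromosomes 1 and 13. Chromosome 1 held 32.0% and 33.4% of ZEB1 peaks, against 34.1% and 32.4% of ZNF609 peaks. Chromosome 13 held 18.6% and 22.4% of ZEB1 peaks, against 22.2% and 33.8% of ZNF609 peaks. The value of ZNF609 replicate 2 stood apart and the other 3 lay close together, so that the lists overlapped; the difference of -7.52 points had a two-sided exact permutation p of 0.667 and was -1.70 points without that list. With lists of equal length the chromosome 13 share was 25.5% and 29.9% for ZEB1, against 30.9% and 33.8% for ZNF609. These lists did not overlap, and the p was 0.333, the smallest that the exact permutation test allows. On chromosome 13, regions covered 12.9% of the sequence for ZEB1 and 12.1% for ZNF609, and 65.0% of 5339 ZEB1 regions and 70.6% of 4690 ZNF609 regions overlapped the other protein. On the other chromosomes 25.2% of ZEB1 regions and 46.3% of ZNF609 regions did. The coverage is an average over all of chromosome 13, of which 33 bins of 1 Mb were dense. It does not give the overlap that crowding alone would bring, which was not tested.

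The classes differed in place as well. Chromosome 13 held 20.6% of ZEB1 only regions, 33.0% of ZNF609 only regions and 53.3% of shared regions. Chromosome 1 held 43.2%, 37.9% and 32.8%, and chromosome 18 held 8.42%, 10.7% and 5.71%, in the same order. Chromosome X held 6.56% of ZEB1 only regions, 5.37% of ZNF609 only regions and 1.78% of shared regions.

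Most chromosomes carried a larger share of the ZEB1 peaks than of the ZNF609 peaks. Both ZEB1 lists had a higher share than both ZNF609 lists on 15 of 23 chromosomes (65.2%), and both ZNF609 lists were higher on 1 (4.35%), chromosome 18. There the shares were 5.51% and 5.94% for ZEB1, against 6.52% and 6.80% for ZNF609. On chromosome 22 they were 5.31% and 3.54% for ZEB1, against 3.46% and 2.83% for ZNF609. Chromosome 17 held 2.30% and 1.44% of ZEB1 peaks, against 1.29% and 0.822% of ZNF609 peaks, and chromosome 19 held 1.44% and 0.740%, against 0.598% and 0.613%. On each of these 3 chromosomes ZEB1 replicate 1 had the highest value. The shares of a list add up to the whole, so a list with more peaks on chromosome 13 has less left for the others.

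**Figure D4:**
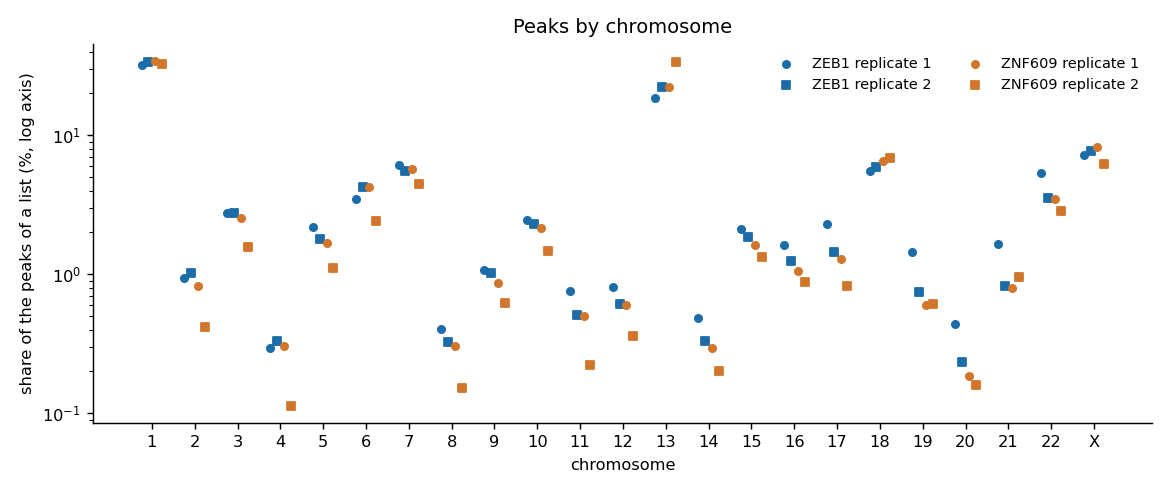
The share of the peaks of each list (vertical axis, percent, log scale) on each chromosome (horizontal axis), with ZEB1 replicates in blue and ZNF609 replicates in orange, replicate 1 as circles and replicate 2 as squares. Chromosomes 1 and 13 stand out in all 4 lists, and chromosome 18 is the 1 on which both ZNF609 lists lie above both ZEB1 lists.

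A larger share of ZEB1 peaks than of ZNF609 peaks fell at gene ends. Within 1 kb of either end of a protein-coding or long non-coding RNA gene were 9.99% and 7.94% of ZEB1 peaks, against 7.12% and 6.29% of ZNF609 peaks. Both ZEB1 lists lay above both ZNF609 lists. The means were 8.96% ± 1.45 for ZEB1 and 6.71% ± 0.582 for ZNF609 (SD, n = 2 each), and the difference of 2.26 points had a two-sided exact permutation p of 0.333, the smallest that 2 against 2 libraries allow. Lists of equal length gave 10.8% and 8.19% for ZEB1, against 7.31% and 6.29% for ZNF609. In dense bins the shares were 9.08% and 7.54% for ZEB1, against 7.03% and 6.21% for ZNF609; outside them they were 13.3% and 9.66% for ZEB1, against 7.5% and 6.97% for ZNF609. Without chromosome 13 they were 11.3% and 9.0% for ZEB1, against 7.91% and 7.39% for ZNF609. ZEB1 replicate 1 was the highest of the 4 lists in each of these comparisons, and without it the difference was 1.23 points. Among peaks with a -log10 q of 5 or more the difference was 2.17 points, with an exact permutation p of 0.667, so these lists overlapped.

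The gap in means was 1.34 points at coding 5′ ends and 0.468 points at coding 3′ ends. Strand was known for 15812 of 19974 protein-coding genes. Within 1 kb of their 5′ ends lay 3.30% and 2.32% of ZEB1 peaks, against 1.72% and 1.21% of ZNF609 peaks. At 3′ ends the shares were 2.44% and 1.84% for ZEB1, against 1.73% and 1.61% for ZNF609. In lists of equal length the 5′ shares were 3.65% and 2.43% for ZEB1, against 1.78% and 1.21% for ZNF609, and the 3′ shares were 2.50% and 1.82% for ZEB1, against 1.6% and 1.61% for ZNF609. The ZEB1 lists lay above the ZNF609 lists in all 4 cases, with an exact permutation p of 0.333 each. The difference between the 5′ and 3′ gaps was not tested.

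**Figure D5:**
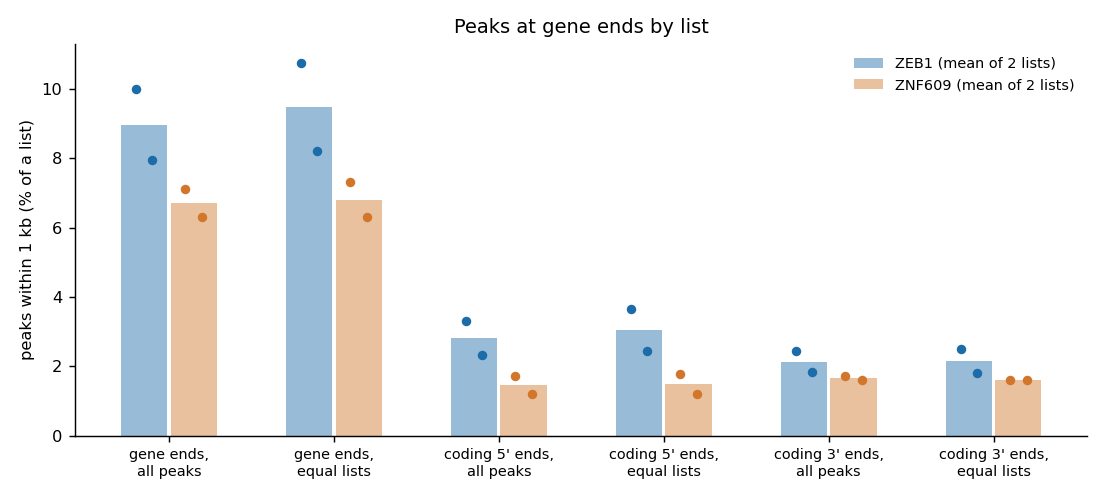
The percent of the peaks of each list (vertical axis) within 1 kb of a gene end, a coding 5′ end or a coding 3′ end, for all peaks and for lists of equal length. Bars are means and points the 2 lists of ZEB1 (blue) and of ZNF609 (orange); for gene ends over all peaks the points are 9.99% and 7.94% for ZEB1, against 7.12% and 6.29% for ZNF609.

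Regions followed the peaks. A gene end lay within 1 kb of 11.2% of ZEB1 only regions, 6.23% of ZNF609 only regions and 14.2% of shared regions. Read at the summit of the strongest replicate 1 peak, which takes out the width of the region, the shares were 7.29% for ZEB1 only, 4.11% for ZNF609 only and 5.71% for shared regions. Coding 5′ ends were met by 3.97% of ZEB1 only, 1.10% of ZNF609 only and 3.75% of shared regions. Among merged regions of exactly 2 lists, a gene end was met by 11.9% for both ZEB1 replicates and by 5.56% for both ZNF609 replicates, with 9.62% and 7.31% for ZEB1 replicate 1 with ZNF609 replicates 1 and 2, and 6.53% and 5.88% for ZEB1 replicate 2 with ZNF609 replicates 1 and 2. The pairs with ZEB1 replicate 1 were thus the 3 highest.

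Counted by gene, a ZEB1 region lay at an end of 756 of 19974 protein-coding genes (3.78%) and a ZNF609 region at 313 (1.57%). Both were present at 250 genes (1.25%), which were 33.1% of the ZEB1 genes and 79.9% of the ZNF609 genes. ZEB1 alone was present at 506 genes (2.53%) and ZNF609 alone at 63 (0.315%). In single lists, ZEB1 peaks lay at 2656 genes (13.3%) and 1694 genes (8.48%), and ZNF609 peaks at 1398 genes (7.0%) and 686 genes (3.43%). Of the 506 genes with ZEB1 alone, 306 still had a ZNF609 peak of 1 or both lists and 200 had none; of the 63 with ZNF609 alone, 50 had a ZEB1 peak and 13 had none. Among genes of known strand, ZEB1 regions met the 5′ end of 489 and the 3′ end of 349, and ZNF609 regions the 5′ end of 183 and the 3′ end of 171.

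Genes with a peak in both lists of a protein and in no list of the other one numbered 310 for ZEB1 (1.55%) and 36 for ZNF609 (0.180%), and 323 genes had a peak in all 4 lists. With lists of equal length these counts were 151 for ZEB1, 28 for ZNF609 and 241 for all 4 lists. Pairs of different antibodies gave such genes too: in the equal lists, 106 genes had a peak in ZEB1 replicate 1 and ZNF609 replicate 1 alone, and 60 in ZEB1 replicate 2 and ZNF609 replicate 1 alone. Chromosome 13 held 5 of the genes with ZEB1 alone (0.988%), 1 of those with ZNF609 alone (1.59%) and 33 of those with both regions (13.2%). Chromosome 1 held 191 (37.7%), 27 (42.9%) and 131 (52.4%), and chromosome 22 held 60 (11.9%), 6 (9.52%) and 13 (5.2%), in the same order. These spreads were not tested.

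The genes under the strongest shared regions had high peaks in all 4 lists. Folds below are the authors' folds of the strongest peak within 1 kb of either end of the gene. Each rests on the background of its own list, so folds of different lists are not on a common scale. Ranks within a list are set beside the folds of some genes only. At NBPF1, where the shared region was chr1:16604583-16619132, they were 6.35 and 5.73 for ZEB1, against 5.98 and 5.65 for ZNF609; NBPF1 belongs to a family of near-identical copies, so the placement of its reads is uncertain. At TLE4, a Groucho family corepressor, a shared region of 195035 bp at chr9:79548345-79743379 spanned the whole gene, with folds of 5.70 and 6.11 for ZEB1, against 5.98 and 5.25 for ZNF609. At PCDH9, a delta protocadherin of neurons on chromosome 13, the folds were 4.60 and 4.58 for ZEB1, against 5.04 and 4.31 for ZNF609. The lowest within-list percentile of -log10 p over the 4 lists was 99.9 for NBPF1, 99.8 for TLE4 and 98.4 for PCDH9. In none of the 3 genes did the folds of both lists of a protein lie apart from those of the other.

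The other 5 genes named in this class were alike. TMEM184B, KCNJ4 and KDELR3 lie near each other on chromosome 22; KCNJ4 is an inward rectifier potassium channel and KDELR3 a receptor that returns proteins to the endoplasmic reticulum. KCNJ4 and KDELR3 met 1 and the same region, chr22:38455804-38472052. Folds at TMEM184B were 4.05 and 3.82 for ZEB1, against 3.87 and 4.44 for ZNF609. TCAF1 on chromosome 7 had 3.61 and 4.46 for ZEB1, against 3.75 and 4.17 for ZNF609. LEFTY1, an antagonist of Nodal signalling on chromosome 1, had 3.18 and 3.31 for ZEB1, against 3.17 and 3.23 for ZNF609.

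Most genes under strong ZEB1 only regions also had ZNF609 peaks. All 8 had a ZNF609 peak of at least 1 list at a gene end, and 5 of them, ZNF689, MOCOS, RPRD1A, KLHL1 and PEF1, had a separate ZNF609 region at an end. At ZNF689, a zinc finger gene with the region chr16:30607819-30610316, folds were 3.51 and 3.95 for ZEB1, against 2.93 and 2.83 for ZNF609. At MOCOS, the molybdenum cofactor sulfurase, with the region chr18:36185258-36188904, they were 3.61 and 3.57 for ZEB1, against 3.05 and 3.23 for ZNF609. At RPRD1A, which binds the tail of RNA polymerase II, they were 3.51 and 3.57 for ZEB1, against 3.17 and 3.23 for ZNF609. KLHL1 had 3.51 and 3.57 for ZEB1, against 3.28 and 3.36 for ZNF609. PEF1 had 2.74 and 3.82 for ZEB1, against 2.81 and 2.96 for ZNF609, so that its lists overlapped. The ZNF689 and MOCOS promoters printed above lie inside these regions. Since the class was set by the presence of regions, these heights describe its members and do not test it.

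The remaining 3 genes had a region of ZEB1 alone. BEX2 on chromosome X had folds of 3.61 and 3.18 for ZEB1, against a single ZNF609 peak of 2.96 in replicate 2. MYL11, a fast muscle myosin light chain, and SEPTIN1 are neighbours on chromosome 16 that met 1 region, chr16:30378965-30381168. Folds at both genes were 3.18 and 3.44 for ZEB1, with a peak of ZNF609 replicate 1 of 3.28 at MYL11 and 3.52 at SEPTIN1 and no peak of ZNF609 replicate 2.

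Among genes under ZNF609 only regions, ZEB1 peaks were present at 6 of 8. GNPAT, an enzyme of ether lipid synthesis, and its neighbour FSAF1 met the same region, chr1:231241189-231243464, which begins beside the start of GNPAT. Folds at GNPAT were 3.40 and 3.44 for ZEB1, against 3.52 and 3.36 for ZNF609, and GNPAT also had a ZEB1 region at an end. Folds at FSAF1 were 3.51 and 3.44 for ZEB1, against 3.52 in ZNF609 replicate 1. FSAF1 had no peak of ZNF609 replicate 2 within 1 kb of its ends, and no ZEB1 region there. The exceptions were EFCAB7 and TTC39C, which had no ZEB1 peak. EFCAB7, a cilium protein of Hedgehog signalling, had folds of 3.17 and 3.50 for ZNF609 and met the region chr1:63521009-63522701. TTC39C on chromosome 18 had 2.93 and 3.36 for ZNF609. HNRNPU, a nuclear RNA-binding protein, KCTD12, an auxiliary subunit of GABA-B receptors, ABCB10, a mitochondrial transporter, and DACH1, a developmental transcription cofactor, had regions of both proteins at different places around their ends. The ZNF609 replicate 1 peak at HNRNPU ranked low in its list, at percentile 17.3, as did the ZNF609 replicate 2 peak at KCTD12, at 20.0.

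Genes with a peak in both lists of 1 protein and in neither list of the other were picked out after their values had been seen, in order of the weaker of both peaks. For ZEB1 the first were FAM151A and THBS3 on chromosome 1, each with folds of 3.07 and 3.31, and CARD10 on chromosome 22, with 3.18 and 3.18; THBS3 is a thrombospondin of the extracellular matrix and CARD10 a scaffold of NF-kappaB signalling. PDIA4, a protein disulfide isomerase, and TPD52L1 had the same folds as CARD10. For ZNF609 the first 2 were EFCAB7 and TTC39C, followed by TOP3B on chromosome 22, a topoisomerase that also acts on RNA, with folds of 2.70 and 3.23. The weaker of both peaks ranked at percentile 88.5 of its list for FAM151A and THBS3, 90.4 for EFCAB7 and 60.4 for TOP3B.

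Of 25 epithelial genes that ZEB1 is known to repress, none had a reproducible region of ZEB1 or of ZNF609, beside 3.78% and 1.57% of all protein-coding genes. ZEB1 replicate 1 had a peak at 8 of the 25 and ZEB1 replicate 2 at 1, beside 13.3% and 8.48% of all protein-coding genes. Both ZNF609 lists had a peak at 0 of them, beside 7.0% and 3.43% of all protein-coding genes. The list holds 5 microRNA genes, which these shares do not include. Both ZEB1 lists met RAB25, a small GTPase of epithelial cells, with folds of 3.07 and 2.42, but their peaks formed no common region. In ZEB1 replicate 1 alone there were peaks at EPCAM (fold 2.41), ESRP1 (2.30), ESRP2 (2.30), CDH3 (2.52), PATJ (2.96) and the neighbouring MIR200A and MIR200B (2.52). These peaks ranked at percentile 15.7 of the list for ESRP1 and ESRP2 and 29.2 for EPCAM. The rank was 43.6 for CDH3, MIR200A and MIR200B and 83.7 for PATJ. In lists of equal length EPCAM, ESRP1, ESRP2 and CDH3 had no peak, while PATJ, MIR200A and MIR200B kept theirs. CDH1, the E-cadherin gene, had no peak in any of the 4 full lists. INTS13 regions met 23 of the 25 genes, beside 63.7% of all protein-coding genes.

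The counts of the next lists are to be read against the same shares of all protein-coding genes, 3.78% for ZEB1 regions, 1.57% for ZNF609 regions and 13.3% for peaks of ZEB1 replicate 1. None of 14 mesenchymal genes, VIM, CDH2 and ZEB2 among them, had a peak in any of the 4 lists. Of 13 genes of ZEB1 cofactors, HDAC1, a histone deacetylase on chromosome 1, had a ZEB1 region, with folds of 3.07 and 2.93 for ZEB1, against 2.93 in ZNF609 replicate 1 and no peak in ZNF609 replicate 2. Of 13 genes of cohesin and its loader, ESCO1, a cohesin acetyltransferase, had a ZNF609 region, with folds of 2.34 and 3.23 and no ZEB1 peak. Its peak in ZNF609 replicate 1 ranked at percentile 17.3, and lists of equal length left a peak in 1 list and no region. MAU2, the partner of NIPBL, had peaks in both ZEB1 lists, with folds of 2.96 and 2.42 and without a common region, and NIPBL itself had none. Of 15 Integrator subunit genes and of 13 semaphorin signalling genes none had a region, and ZEB1 replicate 1 had a peak at INTS1, INTS11, SEMA3B and PLXND1. The genes of ZEB1, ZNF609 and their paralogs ZEB2 and ZNF608 had no peak in any list.

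Among cholesterol synthesis genes, FDPS, PMVK and LSS had a ZEB1 region and no ZNF609 region, and 13 other members had neither; of all protein-coding genes 3.78% had a ZEB1 region and 1.57% a ZNF609 region. Folds at FDPS, the farnesyl diphosphate synthase, were 2.41 and 3.44 for ZEB1, against 2.46 and 2.69 for ZNF609. PMVK had 2.74 and 2.67 for ZEB1, against 2.34 in ZNF609 replicate 1 alone, and LSS, which closes the sterol rings, had 2.19 and 2.93 for ZEB1, against 2.46 in ZNF609 replicate 1 alone. The ZEB1 replicate 1 peaks at LSS and FDPS ranked low in their list, at percentiles 5.65 and 29.2. In lists of equal length FDPS, PMVK and LSS no longer had a ZEB1 region, with peaks left in 2, 2 and 1 lists. FDPS and PMVK lie on chromosome 1 and LSS on chromosome 21, and each of these genes met regions of INTS13, INTS11 and HDGF too, as did 63.7%, 17.4% and 22.2% of all protein-coding genes for each of these proteins by itself.

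Of 16 SLITRK and delta protocadherin genes, neuronal adhesion molecules of which several lie in the crowded part of chromosome 13, ZEB1 regions met 4 and ZNF609 regions 2, beside 3.78% and 1.57% of all protein-coding genes. PCDH9 and SLITRK6 had regions of both proteins. Folds at SLITRK6 were 2.74 and 3.18 for ZEB1, against 2.93 and 2.29 for ZNF609. The ZNF609 replicate 2 peak there had the lowest fold of its list and ranked at percentile 1.24. In lists of equal length SLITRK6 kept a peak in all 4 lists but no longer had regions of both proteins. SLITRK1 had 2.85 and 3.06 and SLITRK5 3.18 and 2.67 for ZEB1, and neither had a ZNF609 peak. These lists were drawn up with earlier results of the same data known, so their counts describe the members and are no separate evidence.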

How the data were processed

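Peak lists of 2 ZEB1 and 2 ZNF609 libraries were used, with those of INTS13, INTS11 and HDGF beside them; input libraries were not analysed here. Per the submitters' processing notes, reads went through FastQC, Trimmomatic, Bowtie, Picard and MACS2; no version, threshold, caller control or build is given in the sources read for this work. There is 1 deposited list per library, so peaks were not called on pooled replicates. The deposited fold of a peak is the authors' linear ratio of summit height to background. Its p-value and q-value were deposited as -log10 values. The deposited score is a whole-number display value, and it was not used. The authors' summit offsets were added to the peak starts. The running numbers of deposited peaks have gaps, up to 52907 in ZEB1 replicate 1, which held 52351 peaks, so some called peaks were removed before deposit. Contig names are those of GRCh38, which was taken as the build by inference. Coordinates count from 1.

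On chromosomes 1 to 22 and X, peaks were merged where they overlapped by 1 bp or more. Percentiles rank -log10 p within a list. The gene table (RefSeq, 19974 protein-coding genes) gives no strand, so windows of 1 kb around either gene end replaced the planned start sites; 18177 long non-coding RNA genes were added for shares of peaks. Strand came from the RefSeq promoter table for 15812 coding genes. Both strands of promoters were searched for CACCTG. Genes named per class were the first 8 by the lowest within-list percentile of a region, besides occupied members of gene lists. A member of the cholesterol synthesis list is not reported here. Members and lists were chosen with earlier results of these data known. Tests were exact permutations over libraries. Alternatives were stricter q-values, lists of equal length, peaks outside dense bins, without broad peaks, other overlaps and windows, and leaving out each list; 2 were added after seeing the data, coding 5′ ends and leaving out chromosome 13. Read depth per library is unknown, so no interval for peak heights is given. Scripts were tested on simulated data. Tools were Python 3.11.15, NumPy 2.4.6, pandas 2.3.3, SciPy 1.17.1 and matplotlib 3.10.9.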

Additional observations from a re-analysis of the deposited data

Results flagged for a closer look

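Peaks on alternate contigs were left out of every comparison, and each list held some of them. There were 15 in ZEB1 replicate 1 and 8 in ZEB1 replicate 2, against 16 in ZNF609 replicate 1 and 8 in ZNF609 replicate 2. The highest fold among them was 4.49 and 3.31 in the ZEB1 lists, both on alternates of chromosome 14, against 3.63 and 4.04 in the ZNF609 lists, both on alternates of chromosome 2. No control library was available as a peak list, so whether input chromatin has the same peaks was not tested.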

How the results depend on the processing

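Of 134 recomputed values of the main results that the setting could change, 69 were counted as unchanged, 59 moved and 6 changed sign. A difference was counted as unchanged whenever it kept its sign, whatever its size. Outside dense bins, for example, the chromosome 13 difference of -0.0605 points was counted so, beside -7.52 points in the main result. The width difference of 71.5 bp in lists of equal length was too, beside 7.0 bp. The causes were not tested beyond what each setting removes. With a -log10 q of 5 or more there were 255 ZEB1 only, 84 ZNF609 only and 281 shared regions, 68.1% of ZEB1 and 84.2% of ZNF609 regions overlapped, and the gene counts were 34 with ZEB1 only, 3 with ZNF609 only and 11 with both. The within minus between differences there were -0.00105 for the Jaccard index and 143 bp for summits, and the width difference was -219 bp. In lists of equal length there were 4288 ZEB1 only and 2958 shared regions, with overlaps of 47.7% for ZEB1 and 50.2% for ZNF609, and 271 genes with ZEB1 only. Outside dense bins there were 437 ZEB1 only, 95 ZNF609 only and 41 shared regions, overlaps of 10.1% and 37.1%, a summit difference of 19.5 bp, and 62 genes with ZEB1 only, 3 with ZNF609 only and 6 with both. Without broad peaks 38.3% of ZEB1 and 56.8% of ZNF609 regions overlapped, and with an overlap of 50% of the shorter region 32.7% and 48.7%, a setting that cannot change the gene counts. Where any peak of the other protein counted, there were 3777 ZEB1 only and 1548 ZNF609 only regions, 74.8% and 84.4% overlapped, and 200 and 13 genes had a single protein. The width difference was -12.0 bp for peaks in reproducible regions. A 5 kb window gave 494 genes with both and 102 with ZNF609 only, and coding 5′ ends gave 140 genes with both. Without chromosome 13 there were 2079 shared regions and overlaps of 25.2% for ZEB1 and 46.3% for ZNF609.

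Leaving out 1 list at a time, so that a protein's regions were the peaks of its other list, gave 4984 (without ZNF609 replicate 2) to 43108 (without ZEB1 replicate 2) ZEB1 only, 2810 (without ZEB1 replicate 2) to 33822 (without ZNF609 replicate 2) ZNF609 only and 6109 (without ZEB1 replicate 1) to 8785 (without ZNF609 replicate 2) shared regions. Overlaps ranged from 17.6% to 66.7% for ZEB1 and from 26.8% to 71.7% for ZNF609. The ZEB1 minus ZNF609 differences ranged from -14.5 bp (without ZNF609 replicate 2) to 28.5 bp (without ZNF609 replicate 1) in width, from -13.3 (without ZNF609 replicate 1) to -1.70 points (without ZNF609 replicate 2) on chromosome 13 and from 1.23 to 3.28 points at gene ends. Genes numbered 245 to 2366 with ZEB1 only (without ZNF609 replicate 2 and without ZEB1 replicate 2), 23 to 887 with ZNF609 only (without ZEB1 replicate 2 and without ZNF609 replicate 2) and 273 to 511 with both (without ZEB1 replicate 1 and without ZNF609 replicate 2). The gene-end difference kept its sign in every alternative run.

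The replicate block, pairing lists by number, gave the same differences of 7.0 bp, -7.52 points and 2.26 points, with exact permutation p of 1, 0.5 and 0.5, where 0.5 is the smallest that 2 pairs allow. Same-numbered lists deviated together over 2101 bins (r = 0.545; 0.192 over 2042 bins without chromosome 13), but the labels give no shared day or batch, so they share only a number. Depth is unknown, and a peak missing from a list is not an absent protein.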
